A study of Mus musculus with 18 samples.

Results

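Maternal imprints are short CpG-rich regions that gain DNA methylation in the growing oocyte and keep it on the maternal chromosome after fertilisation. The regions described here are 8 of them: the Nespas and Gnas exon 1A windows of the Gnas cluster, and the windows of Nnat, Mcts2, Nap1l5, Inpp5f, Peg13 and Slc38a4. They were chosen by name, as fixed windows of the mouse build mm9, and not from measured values. Earlier results of these data were known when the windows were chosen. In all, 285 of the 1207536 CpG positions read on the autosomes and X fall in the 8 windows. Every window was read in at least 1 oocyte, and every one is described.

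The data are reduced representation bisulfite sequencing of 18 single oocytes, a method that cuts DNA with MspI at CCGG sites, so that only the ends of short CpG-rich fragments are read. Oocytes came from secondary follicles (SF) or early antrum follicles (EAF). Knockout (KO) oocytes carry Sall4fl/fl with Zp3-Cre, a Cre that the Zp3 promoter drives in growing oocytes, and the protocol names Sall4fl/fl females without Cre beside them, which are taken here as the source of the oocytes labelled wild type (WT). Both genotypes then carry the floxed allele. There are 7 SF WT, 5 SF KO, 4 EAF WT and 2 EAF KO oocytes. The labels list postnatal days P12.5 and P17.5 for all samples and tie neither age to a follicle stage. The labels give no animal, and all oocytes of a group may come from 1 female. A group therefore counts as 1 sample: no test is made, and each SD below describes oocytes, not animals. Methylation reads check neither the Sall4 deletion nor the cell type, which are taken from the labels.

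An imprinted gene is expressed from 1 parental copy, and the methylated region that marks the parent is laid down in the germ line. At maternal imprints the oocyte's de novo methyltransferase DNMT3A with DNMT3L adds the mark late in growth, while sperm stay unmethylated there. After fertilisation ZFP57, which binds the methylated hexamer TGCCGC, helps to keep the mark while much of the genome is demethylated. Nespas is an antisense RNA whose promoter lies in the cluster's broad maternal mark, and exon 1A is the separate region that controls the Gs-alpha transcript of Gnas. Nnat (neuronatin), Mcts2, Nap1l5 and Peg13 each lie in an intron of a larger host gene (Blcap, H13, Herc3 and Trappc9), and Mcts2 and Nap1l5 are retrogenes. Inpp5f has an imprinted short variant, and Slc38a4 encodes an amino acid transporter of the placenta. No mm9 gene annotation was used, so these placements are background.

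Mcts2 shows how 1 promoter looks in these oocytes, because its reads could be placed on the RefSeq sequence. The 250 bases before the gene's start are printed below on build GRCm38.p6, chr2:152686898-152687147, plus strand, 5′ to 3′. Capitals mark the 16 CpGs that were read in at least 1 oocyte. The reads are on mm9 and were placed by the spacing of their CpGs alone: all 17 CpGs compared fell on a CG, and no other placement in the RefSeq window did this.

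Mcts2 promoter: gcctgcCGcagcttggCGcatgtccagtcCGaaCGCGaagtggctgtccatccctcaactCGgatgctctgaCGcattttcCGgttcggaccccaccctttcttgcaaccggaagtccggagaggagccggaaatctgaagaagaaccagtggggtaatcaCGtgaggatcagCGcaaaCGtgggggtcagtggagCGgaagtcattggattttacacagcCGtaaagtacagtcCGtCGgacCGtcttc

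MspI fragments split these CpGs into a distal set of 8, at -244 to -169 from the gene's start, and a proximal set of 8, at -89 to -7. In the proximal set, EAF WT replicate 1 had 8 of 8 CpGs methylated (37 of 37 counts). SF WT replicate 2 had 3 of 8 methylated, those at -89, -54 and -29, each with all of its reads methylated and the other 5 with none. SF KO replicate 4 had 0 of 8 (0 of 259 counts). The proximal set was thus full in 1 EAF WT oocyte, a patchwork in 1 SF WT oocyte and empty in 1 SF KO oocyte. The distal set was read in the other 4 SF KO oocytes and in EAF WT replicate 4, and every read CpG was unmethylated: 0 of 8, 0 of 7, 0 of 7 and 0 of 8 in SF KO replicates 1, 2, 3 and 5, and 0 of 4 in the EAF WT oocyte, which had 1 read per CpG. No SF WT oocyte was read there, so the distal set gives no comparison of genotypes at the SF stage. The hexamer TGCCGC was searched on both strands of the 250 bases before the gene's start, and not after it. It occurs once in those of Mcts2, around the CpG at -244, and once in those of Nap1l5. It was absent from these bases in the entries of the other members, 6 of the 8 having one, and 2850 of all 32851 promoters (8.68%) hold it there.

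In the oocytes as a whole, methylation of the 8 windows was low to mixed in SF WT, close to 0 in both KO groups and close to complete in EAF WT. A CpG counted as methylated when at least 50% of its reads were. By this count 88 of 232 CpG readings were methylated in SF WT oocytes (37.9%), 22 of 362 in SF KO (6.08%), 86 of 101 in EAF WT (85.1%) and 2 of 78 in EAF KO (2.56%). SF KO replicate 1 has the highest methylation of the SF KO oocytes outside the windows, at 24.6% of reads against 8.90% to 10.6% in the other 4. By this share of reads it also lies above every SF WT oocyte (5.15% to 22.2%) and every EAF WT oocyte (16.4% to 24.1%). Without SF KO replicate 1, 4 of 261 SF KO readings were methylated (1.53%). Among 20 window-by-oocyte values in SF WT, 4 reached 80%, 8 did not pass 20% and the other 8 lay in between. Of 23 in SF KO, none reached 80%, 22 lay at 20% or below and 17 were exactly 0%. Of 14 in EAF WT, 13 lay at 80% or above, 10 of them at 100%, and all 6 in EAF KO lay at 20% or below.

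**Figure D1:**
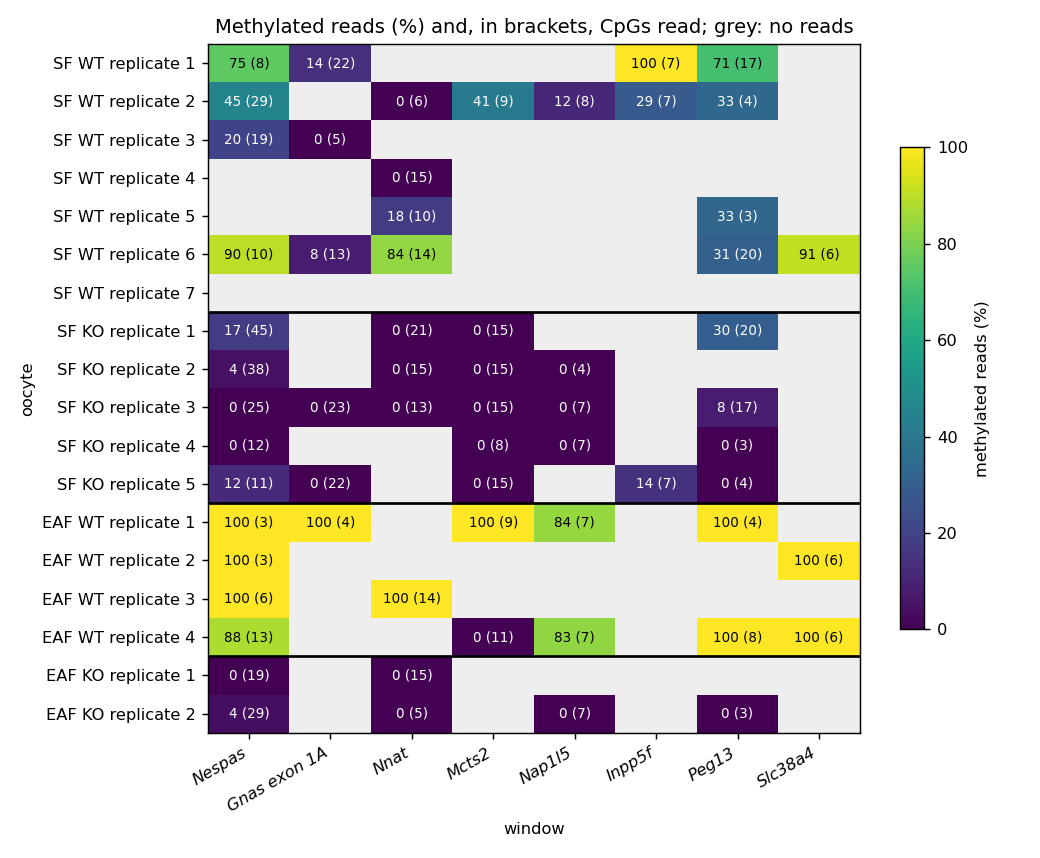
Methylated reads (%, colour and number) of each window in each oocyte, with the number of CpGs read in brackets; rows are oocytes in the 4 groups, columns are windows, and grey cells had no reads. EAF WT cells are at 83% or above except Mcts2 in replicate 4, EAF KO cells are at 4% or below, and SF WT cells run from 0% to 100%.

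The windows are thinly read, and this sets what can be compared. The 18 oocytes have 464271 to 6514029 counts over all CpGs, but 0 to 1253 counts in the 8 windows together. SF WT replicate 7 has none. A value counts below as well read with at least 3 CpGs and 20 summed counts, and 45 of the 63 values are. Reads at 1 CpG of 1 oocyte nearly always gave 1 state: of 335 CpG readings with at least 5 reads, 331 were exactly 0% or 100%, which is 98.8% against 79.4% of 1450740 such readings in CpG-rich sequence elsewhere (at least 5 CpGs within 100 bp). Of the 335, 312 had reads of 1 strand only, with 99.7% at 0% or 100%, and 23 had reads of both strands, with 87.0%. An exact binomial 95% interval on the counts covers counting error only, and it is too narrow even for that. A read is counted at each CpG it spans, and neither neighbouring CpGs nor PCR copies of 1 molecule are independent. In EAF KO replicate 2, for example, the 20 Nap1l5 counts are at most 3 reads at each of 7 CpGs.

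The Nespas window (chr2:174119001-174127000) is the best covered, with 102 CpGs read in 15 oocytes. The SF WT oocytes gave 75% (8 counts), 45.2% (93), 20% (25) and 90% (20) in replicates 1, 2, 3 and 6. The SF KO oocytes gave 17.4%, 4.41%, 0%, 0% and 12.2% in replicates 1 to 5, on 25 to 522 counts. Every SF KO oocyte lay below every SF WT oocyte. The EAF WT oocytes gave 100% in replicates 1, 2 and 3 (5, 15 and 67 counts) and 87.5% in replicate 4 (32 counts, interval 71.0% to 96.5%). The EAF KO oocytes gave 0% (38 counts, interval 0% to 9.25%) and 3.63% (688 counts, interval 2.37% to 5.32%). Both EAF KO values were far below the lowest EAF WT value. Over well read oocytes the mean was 51.7% ± 35.5 (SD, n = 3) in SF WT, 6.80% ± 7.73 (n = 5) in SF KO, 93.8% ± 8.84 (n = 2) in EAF WT and 1.82% ± 2.57 (n = 2) in EAF KO.

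In most KO oocytes methylated Nespas CpGs were few and single. In SF KO replicates 2 and 5 all methylated Nespas reads came from 1 CpG each, of 38 and 11 read, methylated in 23 of 23 and 21 of 21 reads. In EAF KO replicate 2 they came from 2 of 29 CpGs, at the near end of the window (174121070 and 174121112), where no WT oocyte was read. SF KO replicate 1 was different, with 8 of 17 CpGs methylated in 1 fragment (174124652 to 174124857). SF WT replicate 2 was read on the same 17 CpGs and also had 8 methylated, of which 3 were methylated in both oocytes. At that fragment the KO oocyte had as many methylated CpGs as the WT oocyte, at mostly different positions.

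Exon 1A of Gnas (chr2:174152001-174155000, 64 CpGs) was read in 6 oocytes. SF WT replicates 1, 3 and 6 gave 14% (43 counts), 0% (5) and 8.11% (37). SF KO replicates 3 and 5 gave 0% of 76 and 0% of 88 counts, on 23 and 22 CpGs. EAF WT replicate 1 gave 100% on 4 CpGs with 1 read each, and no EAF KO oocyte was read. SF WT and SF KO oocytes shared only 1 read CpG here, so the SF genotypes were read at different places in the window. All 6 of these oocytes were also read at Nespas. In SF WT replicates 1, 3 and 6 Nespas was the more methylated of the pair, by 61.0, 20 and 81.9 points, whereas EAF WT replicate 1 had 100% at both.

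**Figure D2:**
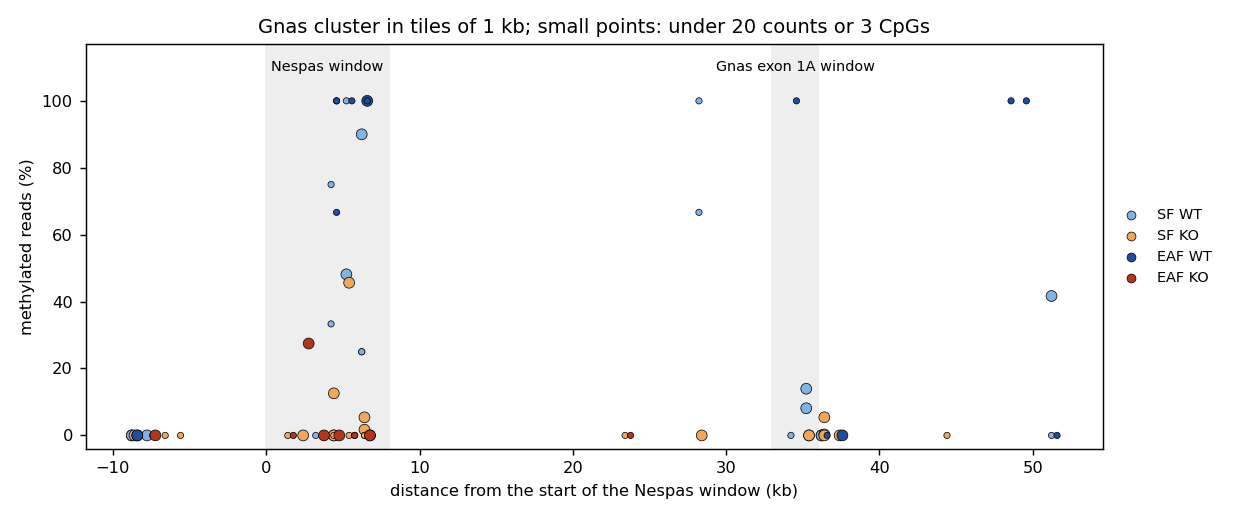
Methylated reads (%) in 1 kb tiles along the Gnas cluster against distance in kb from the start of the Nespas window; each point is 1 oocyte, coloured by group, small points have under 20 counts or 3 CpGs, and grey bands mark the 2 windows. Tiles before the Nespas window are at 0% in every oocyte, EAF WT points within the bands lie between 67% and 100%, and KO points within the bands lie at 46% or below.

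Outside the windows the WT reads were unmethylated in some tiles and methylated in others. Between 9 and 6 kb before the Nespas window every tile was at 0% in every oocyte read, in WT and KO alike. EAF WT replicate 1, at 4 of 4 methylated CpGs in exon 1A, had 0 of 10 methylated counts in the tile 36 kb from the start of the Nespas window, directly after exon 1A. EAF WT replicate 4 had 0 of 30 methylated counts in the next tile. Farther out EAF WT replicate 1 was methylated in 11 of 11 counts at 48 kb and 2 of 2 at 49 kb. At 51 kb SF WT replicate 7 had 41.7% of 24 counts methylated, and EAF WT replicate 2 and SF WT replicate 6 had 0% of 15 and of 14. Between the windows, in the tile 28 kb from the same start, SF WT replicates 2 and 7 had 66.7% of 3 and 100% of 19 counts methylated, and SF KO replicate 4 had 0% of 66.

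Nnat (chr2:157385001-157388000, 46 CpGs, 10 oocytes) ranged widely among SF WT oocytes. They gave 0% (143 counts), 0% (177), 17.7% (124) and 83.8% (198) in replicates 2, 4, 5 and 6. SF KO replicates 1, 2 and 3 gave 0% of 82, 712 and 13 counts, EAF WT replicate 3 gave 100% of 129, and EAF KO replicates 1 and 2 gave 0% of 200 and 49. Oocytes were read at different fragments of this window, so the values need to be read by fragment. On 13 CpGs of 1 fragment (157385842 to 157385985) EAF WT replicate 3 had 13 methylated and SF WT replicate 6 had 11. On 13 CpGs that SF KO replicate 3 shared with SF WT replicate 6, the KO oocyte had 0 methylated with 1 read per CpG. The next fragment (157386067 to 157386214, 15 CpGs) was at 0% in SF WT replicate 4, SF KO replicates 1 and 2 and EAF KO replicate 1, so there SF WT and SF KO oocytes were equally empty. No EAF WT oocyte was read on it, and the EAF genotypes share no Nnat CpG.

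**Figure D3:**
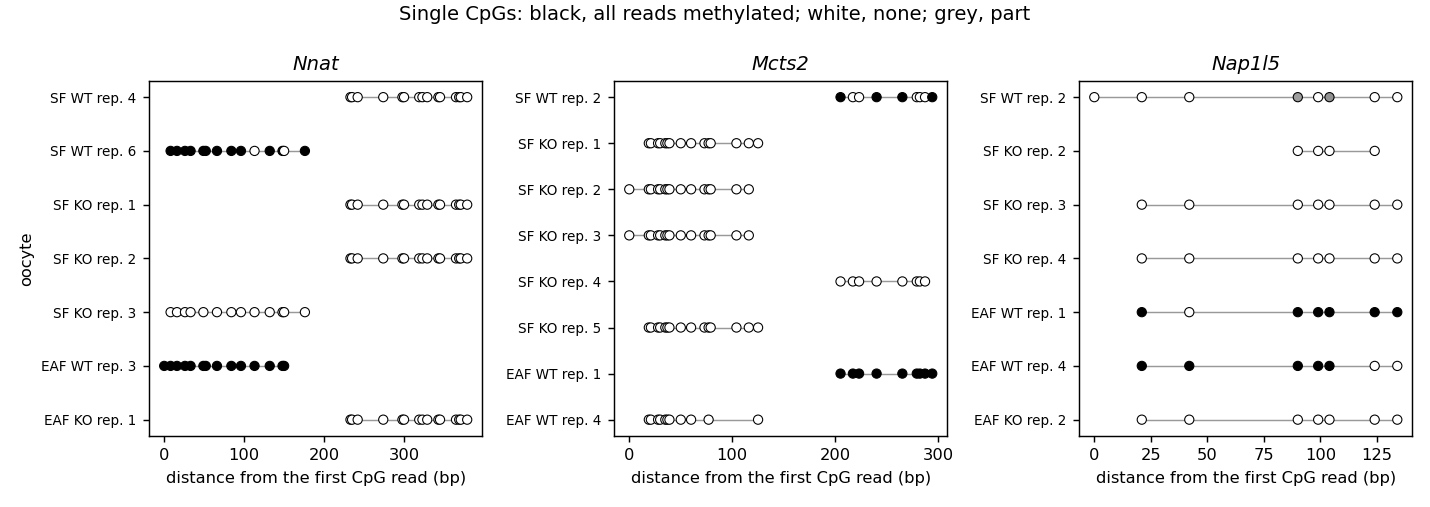
Single CpGs of the first Nnat fragments, Mcts2 and Nap1l5 in each oocyte read there; the x axis is the distance in bp from the first CpG read, black circles had all reads methylated, white circles none and grey circles part. Oocytes were read on different fragments of Nnat and Mcts2 and on the same one in Nap1l5, where both EAF WT oocytes are mostly black and the 4 KO oocytes white.

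The remaining retrogene, Nap1l5 (chr6:58856001-58858000), gave the most direct comparison, since 7 of its 8 CpGs lie on 1 fragment that all groups share. SF WT replicate 2 gave 11.6% of 95 counts (interval 5.92% to 19.8%). SF KO replicates 2, 3 and 4 gave 0% of 4, 135 and 41 counts. EAF WT replicates 1 and 4 gave 84.3% of 70 and 83.3% of 12 counts, with 6 and 5 of 7 CpGs methylated and 4 methylated in both. EAF KO replicate 2 gave 0% of 20 counts (interval 0% to 16.8%). On the same CpGs, then, the EAF WT oocytes were the most methylated, and in SF WT replicate 2 methylation was limited to 2 CpGs. These (58856718 and 58856732) were methylated in all plus-strand reads and in no minus-strand read, a state called hemimethylation when both strands come from 1 chromosome, which single reads do not show. Mcts2 (chr2:152512001-152514000) over its whole window gave 41.2% of 51 counts in SF WT replicate 2, 0% in the 5 SF KO oocytes on 15 to 845 counts, 100% of 41 counts in EAF WT replicate 1 and 0% of 11 counts in EAF WT replicate 4. No EAF KO oocyte was read there.

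Inpp5f (chr7:135831001-135833000) was read on 7 CpGs in 3 SF oocytes. SF WT replicate 1 had 7 of 7 methylated and SF WT replicate 2 had 2 of 7, both with 1 read per CpG. SF KO replicate 5 had 1 of 7 methylated, at 135831721, with 5 reads per CpG. That CpG was unmethylated in SF WT replicate 2, and the 2 oocytes had no methylated CpG in common.

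Peg13 (chr15:72636001-72643000, 27 CpGs, 11 oocytes) gave SF values that nearly met. SF WT replicates 1, 2, 5 and 6 gave 70.6% (17 counts), 33.3% (15), 32.8% (64) and 30.6% (36). SF KO replicates 1, 3, 4 and 5 gave 30% (170), 8% (25), 0% (18) and 0% (13). The highest SF KO value, 30%, lay just below the lowest SF WT value, 30.6%. EAF WT replicates 1 and 4 gave 100% of 54 and 49 counts, and EAF KO replicate 2 gave 0% of 15 (interval 0% to 21.8%). SF KO replicate 1 had 8 of 17 methylated CpGs in 1 fragment (72640321 to 72640527), where SF WT replicate 6 had 4 and the 2 oocytes had 1 in common. The other pair read there went the other way. From 72640310 to 72640517, SF KO replicate 3 had 1 of 17 CpGs methylated and SF WT replicate 1 had 12. At a second fragment, 3 CpGs read in EAF KO replicate 2 were methylated in all reads of EAF WT replicates 1 and 4. Slc38a4 (chr15:96884001-96888000, 6 CpGs) was read in WT oocytes only: 90.9% of 11 counts in SF WT replicate 6, and 100% of 22 and 42 counts in EAF WT replicates 2 and 4.

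**Figure D4:**
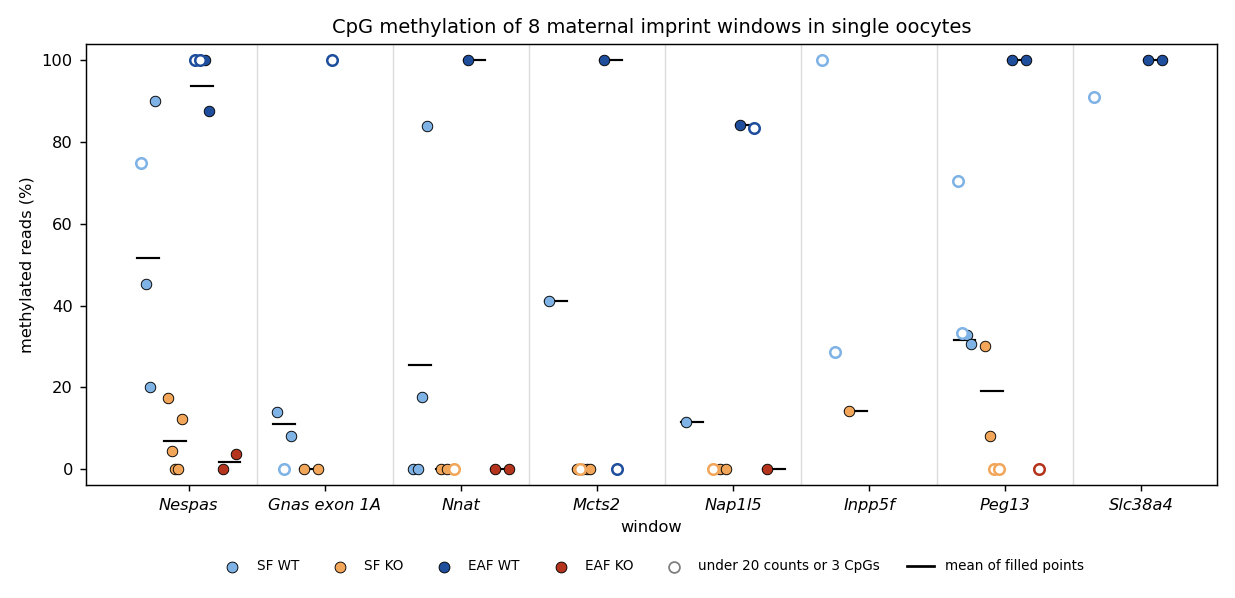
Methylated reads (%) of each window, 1 point per oocyte, coloured by group; open circles have under 20 counts or 3 CpGs and bars are means of the filled circles. EAF WT points sit at 83% or above except 1 open circle of Mcts2 at 0%, KO points sit at 30% or below, and SF WT points spread from 0% to 100%.

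Knockout against wild type in EAF oocytes gave the largest differences. Over well read oocytes 3 windows could be compared, Nespas (-91.9 points), Nnat (-100) and Nap1l5 (-84.3), with a mean of -92.1. The KO and WT oocytes numbered 2 and 2 for Nespas, 2 and 1 for Nnat and 1 and 1 for Nap1l5. The EAF genotypes share no Nnat CpG, so the -100 sets different fragments of that window against each other. The Nnat fragments read in EAF KO were also at 0% in SF WT replicates 4 and 2. All 3 windows were lower by at least 20 points, and in all 3 every KO oocyte lay below every WT oocyte. With values of any depth 4 of 4 windows did so, Peg13 being the added one. Among 12995 tiles of 1 kb outside the windows, covered by the same rule, 19% were lower by 20 points or more and 25.9% had every KO oocyte below every WT oocyte. In the 1623 tiles read in at least 3 oocytes of each group (2 in EAF KO), 15.1% were lower by that much. Most methylated CpG-rich tiles did the same: of 1066 tiles with a median of at least 5 CpGs within 100 bp and at least 80% in EAF WT, 89.6% were lower by 20 points or more, 94.7% had every KO oocyte below every WT oocyte, and the mean was 24.5% in EAF KO and 94.7% in EAF WT. Those tiles were picked by their EAF WT level, which is 1 side of this difference.

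The EAF difference was also large where only identical CpGs were compared, with values of any depth. EAF WT and EAF KO oocytes shared 24 of the 124 CpGs read in either group: 14 in Nespas, 7 in Nap1l5 and 3 in Peg13. The mean difference over these 3 windows was -93.2 points. At all 24 CpGs the KO mean was lower by at least 50 points, and no shared CpG had a methylated KO read. On shared CpGs Nespas went from a mean of 95.8% (n = 3) to 0% (n = 2), Nap1l5 from 83.8% (n = 2) to 0% (n = 1) and Peg13 from 100% (n = 2) to 0% (n = 1). Outside the windows 14.7% of 234126 shared CpGs were lower by at least 50 points, and 65.5% of the 24523 with at least 5 CpGs within 100 bp and at least 80% in EAF WT. Neighbouring CpGs on 1 fragment are not independent, and all shared CpGs of Nap1l5 and Peg13 rest on EAF KO replicate 2.

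At the SF stage the genotype difference had the same direction and was smaller. Over well read oocytes 6 windows could be compared, with a mean difference of -24.5 points: Nespas -44.9, Mcts2 -41.2, Nnat -25.4, Peg13 -12.7, Nap1l5 -11.6 and Gnas exon 1A -11.0. Of these, 3 were lower by at least 20 points, and in 5 every KO oocyte lay below every WT oocyte. Mcts2 and Nap1l5 rest on 1 WT oocyte each. With values of any depth 5 of 7 were lower by at least 20 points. The background was 16% of 27326 tiles covered by the same rule for 20 points or more, and 17.8% for groups that do not overlap, and 3.7% of the 1623 more fully read tiles for 20 points or more. Of 1307 CpG-rich tiles at 80% or above in EAF WT, a choice that uses no SF value, 60.7% were lower by 20 points or more and 54.9% had every KO oocyte below every WT oocyte. All 5 SF KO oocytes were read more deeply than all 7 SF WT oocytes (3688032 to 6514029 against 464271 to 3662592 counts), and the part of depth in the difference was not tested. The SF difference was uneven within windows. On the 128 CpGs that SF WT and SF KO oocytes share, the KO mean was lower by at least 50 points at 52, within 20 points at 63 and higher by at least 50 points at 11, against 10.4% lower and 4.69% higher of 460733 shared CpGs elsewhere. Of the 29132 elsewhere with at least 5 CpGs within 100 bp and at least 80% in EAF WT, 31.4% were lower by that much and 7.73% higher. The 7.73% is close to the 11 of 128 in the windows. On shared CpGs, with values of any depth, the window differences were -51.8 points for Nespas (49 CpGs), -50 for Inpp5f (7), -34.8 for Mcts2 (8), -32.3 for Peg13 (22), -27.9 for Nnat (34), -12.4 for Nap1l5 (7) and 0 for exon 1A (1). With at least 3 CpGs and 20 counts per value, Nespas was at -36.0 and Peg13 at -12.7. Inpp5f and exon 1A then had no value. The 11 higher CpGs lay in Nespas (7), Peg13 (3) and Inpp5f (1). The Nnat difference rested on 1 WT oocyte: without SF WT replicate 6 it was -5.91 points. Without the same oocyte the Nespas difference was -25.8 points, and on values with reads of both strands it was -21.7. With windows widened by 1 kb on each side the exon 1A difference was -2.49 points and that of Peg13 -34.5. Without SF KO replicate 1 the Peg13 difference was -23.7 points, and without SF KO replicate 3 it was -1.68.

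EAF WT oocytes were on average more methylated than SF WT oocytes in the windows read at both stages. KO oocytes were low at both, with values up to 30% in SF (Peg13 in replicate 1) and 3.63% in EAF. In WT, 5 of 5 windows were higher in EAF by at least 20 points, with a mean of 63.3: Nnat 74.6, Nap1l5 72.7, Peg13 68.3, Mcts2 58.8 and Nespas 42.0. In 4 of them every EAF oocyte lay above every SF oocyte, Nespas being the exception. Of the 4, Peg13 had 2 EAF and 2 SF oocytes, Nnat 1 and 4, and Mcts2 and Nap1l5 1 of each. With 1 of each this is only the sign of the difference. The background was 14.1% of 17506 tiles higher by 20 points or more and 18.5% without overlap, and 5.73% of the 1623 more fully read tiles were higher by 20 points or more. Of 1529 CpG-rich tiles at 80% or above in EAF WT, 62.2% were higher by that much and 68.9% had every EAF oocyte above every SF oocyte, but their choice uses the EAF WT level, 1 side of this difference. Without SF WT replicate 3 the Nespas value was 26.2. With values of any depth 5 of 7 windows were higher by that much, and the Mcts2 value was 8.82 with EAF WT replicate 4 included, which was read on the distal fragment. On shared CpGs, with values of any depth, Nnat was higher by 17.4 points, where SF WT replicate 6 was at 82.6%, Peg13 by 44.6 (4 CpGs, SF WT replicate 6 at 100%) and Nespas by 79.5 (15 CpGs). The SF WT side of Nespas was thin, with 3 counts in replicate 2 and 12 in replicate 3. SF WT replicate 6 had 3 counts in Peg13. With at least 3 CpGs and 20 counts per value Peg13 was higher by 67.2 points and Nespas had no value. Over the 57 shared CpGs 31 were higher by at least 50 points, 25 within 20 points and none lower by at least 50, against 9.79% higher by at least 50 points of 324440 shared CpGs elsewhere and 46.1% of the 33677 CpG-rich ones at 80% or above in EAF WT. In KO oocytes the 3 comparable windows, Nespas (-4.98), Nnat (0) and Nap1l5 (0), all stayed within 20 points. On shared CpGs at any depth the KO differences were -18.2 for Nespas, -11.25 for Peg13 and 0 for Nnat and Nap1l5. SF KO replicate 5 entered Nespas there with 1 CpG, at 100%. With at least 3 CpGs and 20 counts per value the Nespas difference was 1.74. Of 19224 tiles, 8.15% were lower and 6.88% higher by 20 points or more between the KO stages. The genotype difference in EAF minus that in SF was -64.8 points over Nespas, Nnat and Nap1l5. This difference between stages was not tested, and its Nnat part sets EAF oocytes read on different fragments against each other.

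Against the rest of the same oocyte's genome, the windows were higher in most WT oocytes and lower in the KO oocytes. Pooled over the 8 windows, methylation was 28.3% ± 23.9 (SD, n = 6) in SF WT, 3.65% ± 5.76 (n = 5) in SF KO, 95.5% ± 5.62 (n = 4) in EAF WT and 1.62% ± 2.29 (n = 2) in EAF KO. CpGs outside, weighted to the windows' CpG density, were at 13.6% ± 3.54, 14.5% ± 7.16, 25.9% ± 2.38 and 11.9% ± 0.330. In 5 of 6 SF WT and 4 of 4 EAF WT oocytes the windows were above the rest, SF WT replicate 4 being the exception at 0% against 10.5%. In 5 of 5 SF KO and 2 of 2 EAF KO oocytes they were below it. SF KO replicate 1, with the highest rest (27.2%), was at 13.8% in the windows, and without it the SF KO mean was 1.11% ± 1.11 (n = 4).

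**Figure D5:**
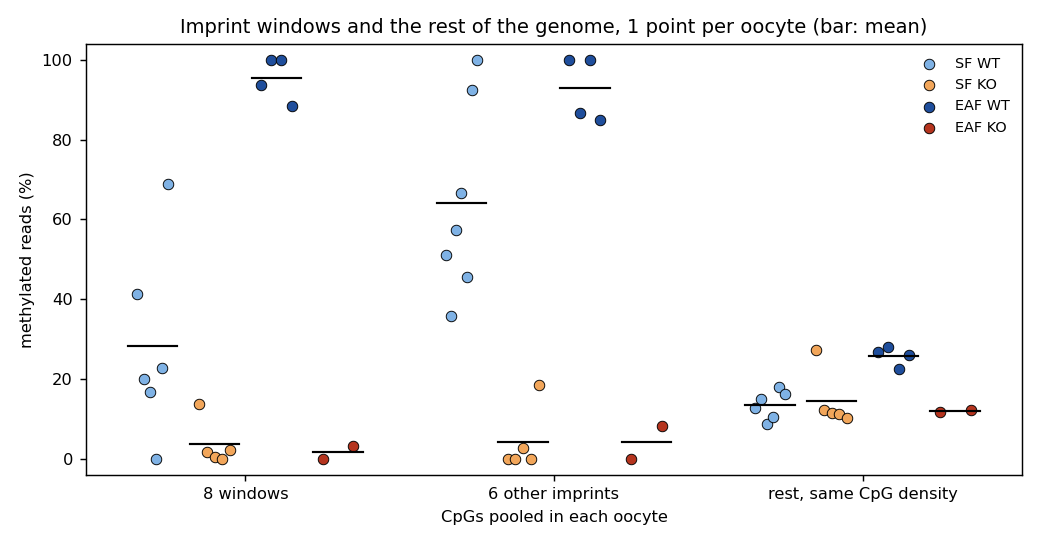
Methylated reads (%) pooled per oocyte over the 8 windows, over 6 windows of other maternal imprints and over the rest of the genome at the windows' CpG density; each point is 1 oocyte, coloured by group, and bars are group means. KO oocytes lie below the rest of their genome at the windows, and with reads pooled in this way SF WT oocytes lie lower at the 8 windows than at the 6 other imprints; with windows weighted equally 5 of 6 do.

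The nearest comparison is with 6 other maternal imprint windows (Snrpn, Kcnq1ot1, Igf2r, Grb10, Zrsr1 and Peg10). Pooled over these, EAF WT, SF KO and EAF KO oocytes were at 92.9% ± 8.19 (SD, n = 4), 4.31% ± 8.09 (n = 5) and 4.12% ± 5.82 (n = 2), each differing from its value in the 8 windows by less than this SD. SF WT oocytes were at 64.1% ± 24.0 (n = 7), against 28.3% in the 8 windows (n = 6). SF WT replicate 7, at 100%, enters only the first of these means. Within the 6 oocytes read at both, the 8 windows minus the other imprints gave a mean of -29.8 points. It was -21.5 with each window weighted equally. With reads pooled, the 8 windows were the lower set within each of the 6 SF WT oocytes read at both: 41.3% against 51.0%, 20.05% against 35.7%, 16.7% against 57.4%, 0% against 66.6%, 22.9% against 45.6% and 68.9% against 92.4% in replicates 1 to 6. With each window weighted equally they were lower in 5 of the 6. SF WT replicate 1 was then higher at the 8 windows, at 64.9% against 48.6%, and SF WT replicate 2 nearly equal, at 26.6% against 26.8%. Each oocyte was read at other windows and fragments of both sets, and the difference was not tested.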

How the data were processed

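Per the labels' protocols, each of the 18 libraries is the MspI-cut, bisulfite-treated and PCR-amplified DNA of 1 oocyte. BSMAP 2.89 is the tool and mm9 the build listed, per the submitters' processing notes. Read filters were not stated. Per the file headers, the deposited tables give for each CpG the count of all reads and of methylated reads, and the deposited methylation ratio is a fraction from 0 to 1.

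Counts were summed over the CpGs of each window and oocyte (Python 3.11.15, pandas 2.3.3, numpy 2.4.6, scipy 1.17.1, matplotlib 3.10.9), so a read is counted at each CpG it spans. Values with at least 3 CpGs and 20 counts were compared as means over oocytes. A difference of 20 points counts as large for a window or a 1 kb tile, and 50 points for a single CpG. CpG density counts the positions read in any library within 100 bp of a CpG, itself included. Depth is 464271 to 6514029 counts per oocyte. On simulated data the averaging step gave back the differences put in. Those data were drawn independently at each CpG from a fixed level per group, unlike the real reads. They check the arithmetic only.

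All 8 members are named. The planned search for the 3 most similar tiles gave nothing, since only 9 oocytes had 3 well read windows and no tile was read in 12 of them. Windows of 9 other imprints were planned, and 6 had values; the other 3 were not analysed here. The members, windows and comparisons were chosen with earlier results of these data known. Same-numbered oocytes share only a number. The alternatives tried are in the closing section.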

Additional observations from a re-analysis of the deposited data

How the results depend on the processing

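No window difference of at least 20 points turned to the other sign under any alternative run. Of 175 alternative values for windows with such a difference, 171 stayed at 20 points or more. Many of these were fixed in advance, since leaving out an oocyte without a well read value in a window returns the main value. Mcts2 in SF genotypes, for example, was -41.2 in all 11 runs that left out 1 oocyte. Runs that left out the only oocyte of a group gave no value and are not counted. The 171 is therefore no measure of stability. The other 4 are as follows. Nnat in SF genotypes was -5.91 without SF WT replicate 6 and 0 on values with reads on both strands. In WT stages Nnat was 17.4 on shared CpGs and Mcts2 was 8.82 with any depth. The mean over windows for EAF KO minus EAF WT (-92.1) was -98.2 with CpGs of at least 5 reads, -98.1 with at least 10, -96.4 with the former weighted equally, -100 with at least 100 counts, -84.3 with CpGs covered in at least 50% of the oocytes, -85.9 on CpGs read in both groups and -85.7 on values with both strands, each on 1 or 2 windows. The -100 is Nnat alone, where the EAF genotypes share no CpG. Leaving out 1 oocyte each gave -96.9 to -85.0 on 2 or 3 windows. Leaving out 1 oocyte gave -27.1 to -18.7 for SF KO minus SF WT, 57.7 to 70.8 for the WT stages and -3.40 to -0.779 for the KO stages.

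The use of shared CpGs, of both strands, of equal weights for CpGs at any depth or for windows, and of tiles covered as the windows were chosen after seeing the data. Requiring CpGs in at least 50% of the oocytes gave no value for the SF genotypes, the WT stages or the difference between stages.

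With a replicate block (differences between same-numbered oocytes) the means were -15.2 for SF KO minus SF WT (2 windows), 80 for the WT stages (1) and -4.54 for the KO stages (2). For EAF genotypes and the difference between stages no same-numbered pair had values. Deviations of 13 same-numbered pairs over tiles correlated at -0.139 to 0.0684, none over 0.1, so the numbers were not taken to pair oocytes. Depth limits every window: most values rest on 1 fragment and 1 strand.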
